A study of Homo sapiens with 2 samples.

Results

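Chromatin around 9 genes of the T-cell lineage was examined in GM12878, an established human line of B cells immortalised by Epstein-Barr virus. The genes were CD3D, CD3E, CD3G, CD4, CD8A, CD28, GATA3, TCF7 and BCL11B. They occupy 7 gene spans in hg19, since the 3 CD3 genes share 1 span. A region belonged to a span if its midpoint lay inside it or within 50 kb of either end. By this rule 17 of the 23612 accessible regions in the deposited list were members. The regions come from ATAC-seq, which reads out where a transposase can insert sequencing adapters into the genome. The 2 libraries, made from separate untreated cultures with 50000 cells each, form 1 group, and the authors deposited 1 list for both. The list holds no value per culture, so no sample groups were compared, no spread between cultures could be given, and the read depth is unknown.

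T cells recognise antigen through a receptor whose signalling chains are the CD3 proteins. CD4 and CD8A are chains of the coreceptors that bind MHC class II and class I molecules, and CD28 delivers the costimulatory signal. GATA3, TCF7 and BCL11B are transcription factors that commit blood progenitors to the T lineage. B cells follow a different programme under PAX5 and EBF1, so the 9 genes mark a lineage other than that of the line studied here. A member region shows accessible DNA near such a gene, and not that the gene is transcribed. A span without a region is not shown to be closed, since weakly accessible DNA may be missing from a list.

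Promoter sequences of 4 members are shown first, because the results turn on whether a region lay at the start of a gene. CD28 had a region over its start and GATA3 had one close to it, whereas the starts of TCF7 and BCL11B had none within 10 kb. For these distances a start is the 5′ end of the hg19 span. Other starts of a gene were not placed on the list, so a region inside a gene may lie at one of them. Each sequence is from RefSeq in GRCh38.p14 and runs from 250 bases before a transcription start to 50 bases after it, in the direction of the gene. BCL11B (chromosome 14) is on the minus strand, and CD28 (chromosome 2), GATA3 (chromosome 10) and TCF7 (chromosome 5) are on the plus strand. GATA3 has 6 starts, CD8A has 4 and TCF7 has 2 in that table. The start shown is the one whose distance from the 3′ end of the gene is nearest to the length of the hg19 span, which may differ from the start of that span. Capitals mark matches to TGTGGT (RUNX), GGAAGT (ETS) or TATAAA (a core promoter element), on either strand.
CD28 promoter: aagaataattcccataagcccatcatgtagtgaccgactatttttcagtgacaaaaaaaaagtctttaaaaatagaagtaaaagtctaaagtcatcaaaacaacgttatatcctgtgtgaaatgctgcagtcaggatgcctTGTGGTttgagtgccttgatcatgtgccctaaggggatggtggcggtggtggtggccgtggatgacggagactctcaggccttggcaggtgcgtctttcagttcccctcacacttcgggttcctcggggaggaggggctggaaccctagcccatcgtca
GATA3 promoter: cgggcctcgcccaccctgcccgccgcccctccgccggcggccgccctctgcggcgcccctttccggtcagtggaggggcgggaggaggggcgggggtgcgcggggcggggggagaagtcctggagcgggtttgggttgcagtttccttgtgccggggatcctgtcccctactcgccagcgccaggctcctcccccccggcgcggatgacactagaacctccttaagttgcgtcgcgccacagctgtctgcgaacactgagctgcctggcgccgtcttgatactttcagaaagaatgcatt
TCF7 promoter: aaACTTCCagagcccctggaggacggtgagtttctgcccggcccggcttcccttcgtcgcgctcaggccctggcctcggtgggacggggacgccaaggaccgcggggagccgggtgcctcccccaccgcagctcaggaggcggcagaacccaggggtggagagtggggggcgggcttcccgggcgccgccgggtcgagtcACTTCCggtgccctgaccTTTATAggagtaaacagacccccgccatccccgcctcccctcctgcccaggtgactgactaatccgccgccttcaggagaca
BCL11B promoter: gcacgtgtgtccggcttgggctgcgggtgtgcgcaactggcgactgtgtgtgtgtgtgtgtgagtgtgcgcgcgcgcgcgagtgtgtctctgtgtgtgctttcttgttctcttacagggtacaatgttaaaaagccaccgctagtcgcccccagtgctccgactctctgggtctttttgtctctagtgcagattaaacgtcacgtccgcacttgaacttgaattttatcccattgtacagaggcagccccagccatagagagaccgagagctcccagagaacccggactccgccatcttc

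The CD28 promoter held 1 match to TGTGGT, the core bound by RUNX factors, which began 109 bases before the RefSeq start. The TCF7 promoter held 2 matches to GGAAGT, a form of the site bound by ETS factors, and 1 to TATAAA, all on the strand opposite to the gene. The match to TATAAA lay from 32 bases before the start onward. The GATA3 and BCL11B promoters held 0 matches to any of the 5 motifs searched. The other 2 motifs were AGATAA (for factors of the GATA family) and CTTTGA (TCF and LEF factors), and neither was found in any member promoter. Promoters were at hand for 6 of the 9 genes, which adds CD3D, with 1 match to TGTGGT, and CD8A, with 0 matches to any motif. Those of CD3E, CD3G and CD4 were not used here. Over the 35116 promoters of the table, TGTGGT was present in 13.1%, GGAAGT in 22.8%, TATAAA in 11.5%, AGATAA in 10.3% and CTTTGA in 12.9%. These matches are descriptions of the sequence and not evidence of binding. Only exact matches to the letters given were searched, so 0 matches does not mean that other forms of a site are absent.

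The 6 member promoters differed widely in base composition. GC content was 69.7% for TCF7, 69.3% for GATA3, 57.0% for CD8A, 55.7% for BCL11B, 52.3% for CD3D and 48.3% for CD28, beside a median of 58.7% over all promoters (quartiles 47.0% and 68.0%). CpG dinucleotides numbered 29 in GATA3, 25 in TCF7, 20 in BCL11B, 16 in CD8A, 9 in CD28 and 5 in CD3D, beside a median of 14. Among the 4 promoters printed, that of CD28, with a region over the start of its span, was the poorest in GC and CpG. The 2 richest were those of GATA3, with a region nearby, and TCF7, without one.

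All 7 windows held at least 1 region, and the members were spread unevenly among them. CD4 had 4 regions, CD28, GATA3 and TCF7 had 3 each, the CD3 genes had 2, and CD8A and BCL11B had 1 each. Of all windows of 142 kb, the mean length of the 7, that tile chromosomes 1 to 22 and X outside centromeric, variable and stalk bands, 51.9% held at least 1 region. Such tiles held a median of 1 region (quartiles 0 and 2). With flanks of 10 kb in place of 50 kb, 5 of the 7 windows held a region. The share of tiles of that shorter length with a region was not computed. The 7 windows together held 17.1 regions per Mb, beside 8.27 per Mb over the same chromosomes. The windows surround genes and most tiles need not, so nothing particular to T-lineage genes is read from this difference, which was not tested. Of the 17 members, 4 lay inside a gene span, with 7 upstream and 6 downstream. The spans made up 0.292 Mb of the 0.992 Mb of windows, so most of the length searched was flank.

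**Figure D1:**
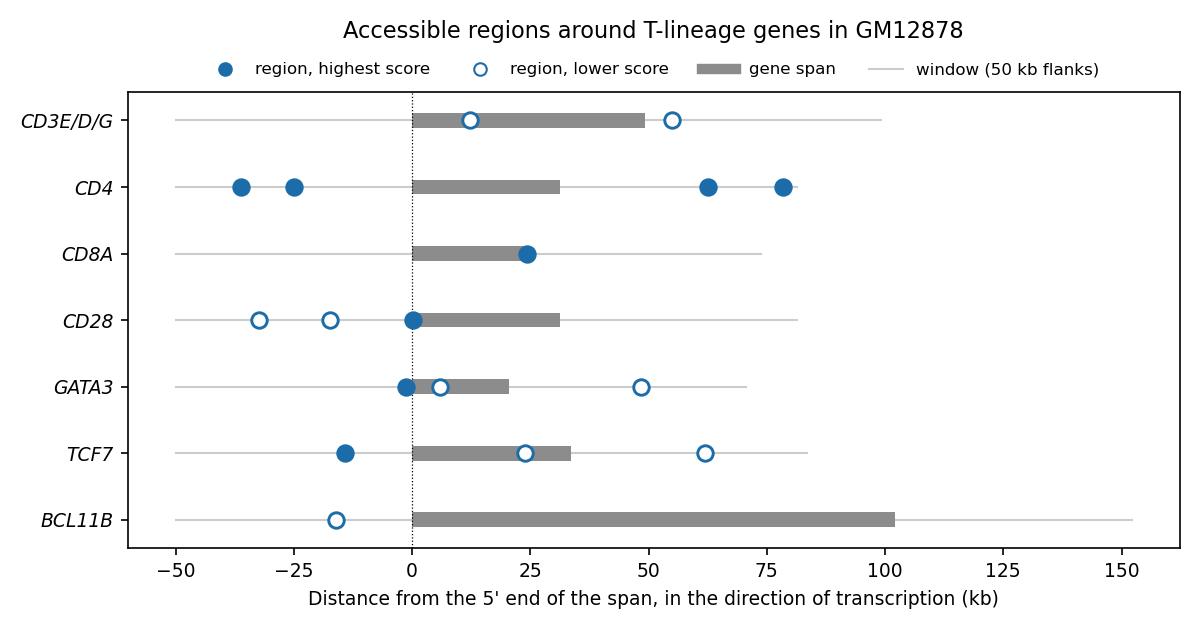
Each row is a T-lineage gene span (grey bar) with its flanks, and each circle is the midpoint of an accessible region at its distance in kb from the 5′ end of the span, filled where the region has the highest score. For the CD3 genes the 5′ end is that of CD3E. The CD28 row has a region at 0, and the CD4, CD8A and BCL11B bars hold no midpoint, with that of CD8A just past its end.

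The genes of the CD3 complex encode the chains that carry the signal of the T-cell receptor into the cell. Their shared span (chr11:118175295-118224500, band 11q23.3) held 1 region inside it and 1 beyond its far end. The inner region (chr11:118187274-118187881) was 608 bp wide, had a score of 719 and began 11979 bp from the start of CD3E. The score is the authors' whole number per region, from 541 to 1000, and no label or header names its scale. The range has the form of a scaled irreproducible discovery rate (IDR), on which an IDR of 0.05 would give 540. The other region (chr11:118229980-118230542) was 563 bp wide, had a score of 569 and began 5480 bp past the end of the span, on the side where UBE4A, a ubiquitin ligase gene, is the next gene of the RefSeq table. Neither region had the highest score. Upstream of the inner region no region was listed for 305 kb, a stretch that takes in the start of CD3E. The starts of CD3D and CD3G in hg19 are not given by the rule, so no distance to them is stated.

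The window of CD4, the coreceptor of helper T cells, held the most regions of the 7, and none of them lay in the gene. The gene (chr12:6898638-6929976, band 12p13.31) lay whole inside a stretch of 86.5 kb without a region, which began 24.8 kb before its start. Stretches as long are common, being 32.8% of all those between neighbouring regions and 85.0% of the length between regions. On the upstream side, regions of 1103 bp (chr12:6862004-6863106) and 476 bp (chr12:6873386-6873861) had midpoints 36.1 and 25.0 kb before the start. On the downstream side, a region of 1705 bp (chr12:6960328-6962032), the widest of the members, and 1 of 1162 bp (chr12:6976473-6977634) had midpoints 31.2 and 47.1 kb past the end of the gene. All 4 had the highest score of 1000. This window is also the most crowded with genes. The RefSeq table puts 9 other protein-coding genes within 50 kb of CD4, among them LAG3, an inhibitory receptor gene related to CD4, the glycolytic enzyme gene TPI1 and the deubiquitinase gene USP5. For the other 6 spans that number is between 0 and 4. Which of these genes the 4 regions belong to was not determined, because the table is of another build.

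The gene for CD8A, the alpha chain of the coreceptor of cytotoxic T cells, had its only region at its 3′ end. This region (chr2:87010977-87011521, band 2p11.2) was 545 bp wide, had the highest score and lay 207 bp beyond the end of the span (chr2:87011728-87035519, minus strand). It was thus 24.0 kb from the 5′ end. From that region on, no region was listed for 291 kb, across the whole gene and 267 kb upstream of it, the side on which CD8B, the gene for the other chain of the coreceptor, is the next protein-coding gene. RMND5A, a ubiquitin ligase subunit gene, is the next protein-coding gene on the side of the region.

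CD28, the costimulatory receptor of T cells, was the only one of the 7 spans whose 5′ end was covered by a region. The region (chr2:204571030-204571578, band 2q33.2) was 549 bp wide, had the highest score and had its midpoint 106 bp inside the span (chr2:204571198-204602557). The promoter of this gene is the first of those printed above. A pair of further regions lay upstream and had lower scores. That with its midpoint 17.5 kb before the start (chr2:204553485-204553986) was 502 bp wide with a score of 559, the lowest of the 17, and that 32.3 kb before it (chr2:204538675-204539095) was 421 bp wide with a score of 853. No protein-coding gene other than CD28 lies within 50 kb of it in the RefSeq table, and the same holds for BCL11B. Genes farther from CD28 that may lie near its upstream regions were not counted.

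GATA3, a zinc-finger factor needed at several steps of T-cell development and known also from T helper type 2 cells, had a region close to its start. This region (chr10:8095240-8095709, band 10p14) was 470 bp wide, had the highest score and ended 958 bp upstream of the span (chr10:8096667-8117164). The RefSeq table lists GATA3-AS1, a long noncoding RNA gene, as overlapping GATA3. The second region lay inside the gene (chr10:8102025-8103237), with its midpoint 5.96 kb from the start. It was 1213 bp wide, the widest of the 4 members inside a span, and had a score of 924. The third (chr10:8144841-8145252) was the narrowest of the 17 at 412 bp, had a score of 661 and lay 27.9 kb past the end of the gene.

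TCF7 encodes TCF-1, a factor that acts downstream of Notch signalling in early T-cell progenitors. No region lay at the 5′ end of its span, and the RefSeq starts of the gene were not placed in hg19. The nearest (chr5:133435696-133436640, band 5q31.1) was 945 bp wide, had the highest score and ended 13762 bp upstream of the span (chr5:133450402-133483920). A region inside the gene (chr5:133473957-133474538) had its midpoint 23.8 kb from the start, was 582 bp wide and had a score of 824. The third (chr5:133511768-133513057) was 1290 bp wide, had a score of 886 and had its midpoint 28.5 kb past the end, on the side where SKP1, a ubiquitin ligase subunit gene, is the next gene. The stretch around the start without a region measured 37.3 kb, below the median of 44.1 kb between neighbouring regions of the list.

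BCL11B, a zinc-finger factor that completes commitment to the T lineage, had the fewest regions per Mb of the 7, at 4.95. Its span (chr14:99635625-99737822, minus strand, band 14q32.2), the longest of the 7, held 0 regions. The only member (chr14:99753526-99754110) was 585 bp wide, had a score of 811 and ended 15704 bp upstream of the start. From that region to the next on the other side no region was listed for 1059 kb, of which 942 kb lay beyond the 3′ end of the gene. In T cells this gene is known to be controlled by an enhancer far beyond its 3′ end. Of the 23421 stretches between neighbouring regions on chromosomes 1 to 22 and X, 1.28% were as long, and they made up 20.9% of the length between regions. Of all stretches, 9.50% were as long as that at CD3E and 10.1% as long as that at CD8A, and these made up 54.7% and 56.0% of the length between regions. Region numbers in the list ran on across each of these stretches and all 7 windows with 0 skipped.

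The share of members with the highest score differed between flank sizes, on small counts that include one another. Of the 17 members 8 (47.1%) had the highest score, beside 60.1% of the list, and 4 of these 8 were at CD4. Without CD4 it was 4 of 13 (30.8%). With 10 kb flanks the share was 3 of 7 (42.9%), and with 100 kb flanks it was 16 of 27 (59.3%), close to that of the list. The median width was 582 bp (range 412 to 1705), beside 756 bp over the list (quartiles 547 and 1082), and 11 of the 17 were narrower than the list's median. At the highest score the median width was 747 bp for members and 953 bp for the list, and below it 582 bp for members and 556 bp for the list. Regions covered 1.32% of the 7 windows, beside 0.730% of the chromosomes outside centromeric, variable and stalk bands. No test was made of these differences, because the list has no replicates and 4 members share 1 window.

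**Figure D2:**
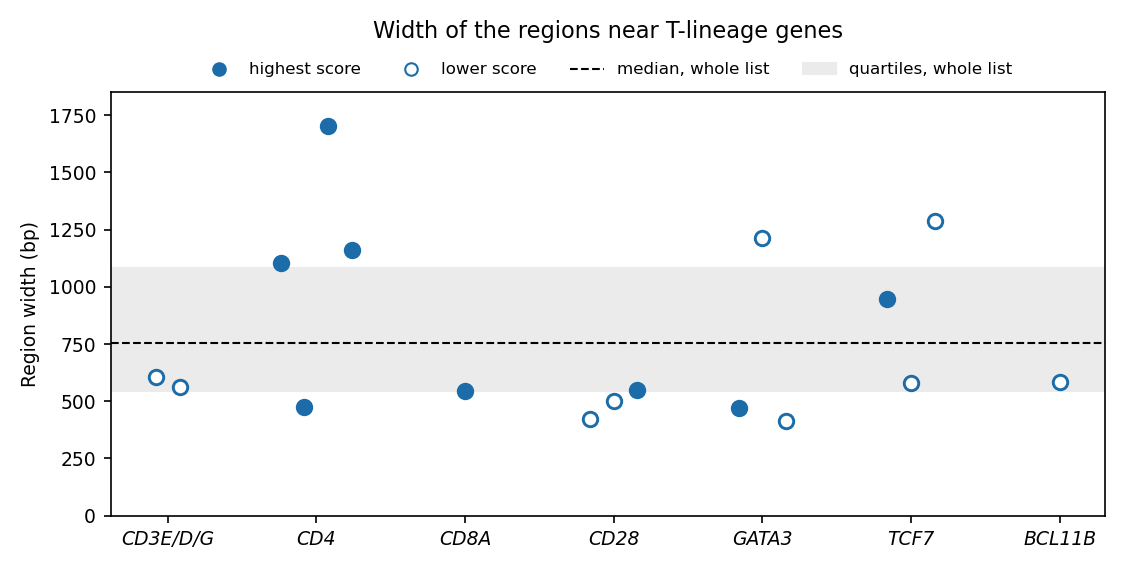
Each circle is 1 of the 17 regions near T-lineage genes, placed by gene, with its width in bp and filled where its score is 1000. The dashed line and grey band are the median and quartiles of the whole list, and 11 circles lie below the line.

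The limit of 50 kb left few regions near its edge. The member closest to it lay 47.1 kb from CD4, and the nearest region beyond it lay 52.7 kb from the same gene, both with a score of 1000. Between 50 and 100 kb there were 10 further regions, 4 of them at CD4, 2 at GATA3 and 0 at BCL11B. For BCL11B the next region was 209.8 kb from the gene.

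The same counts were made at 6 B-lineage loci, as the programme known for this line. They comprise CD79A, CD79B and MS4A1, which encode surface proteins of B cells, and the transcription factor genes PAX5, EBF1 and POU2AF1. Their bounds were rounded to 1 kb and set from general knowledge of hg19, so distances there carry an error of about that size. A region lay within 1 kb of the start at 2 of the 7 T-lineage spans (CD28 and GATA3) and at 4 of the 6 B-lineage genes (MS4A1, PAX5, EBF1 and POU2AF1). For the CD3 genes only the start of CD3E was counted. The share of all gene starts with such a region is not known, because no annotation of hg19 was at hand. Neither count can therefore be called low or high. The median distance from the start to the nearest region was 13.8 kb at T-lineage spans and 0 kb at B-lineage genes. The groups overlapped, since CD28 also stood at 0 kb and CD79B, a signalling chain of the B-cell receptor, at 83.3 kb, farther than any T-lineage span.

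**Figure D3:**
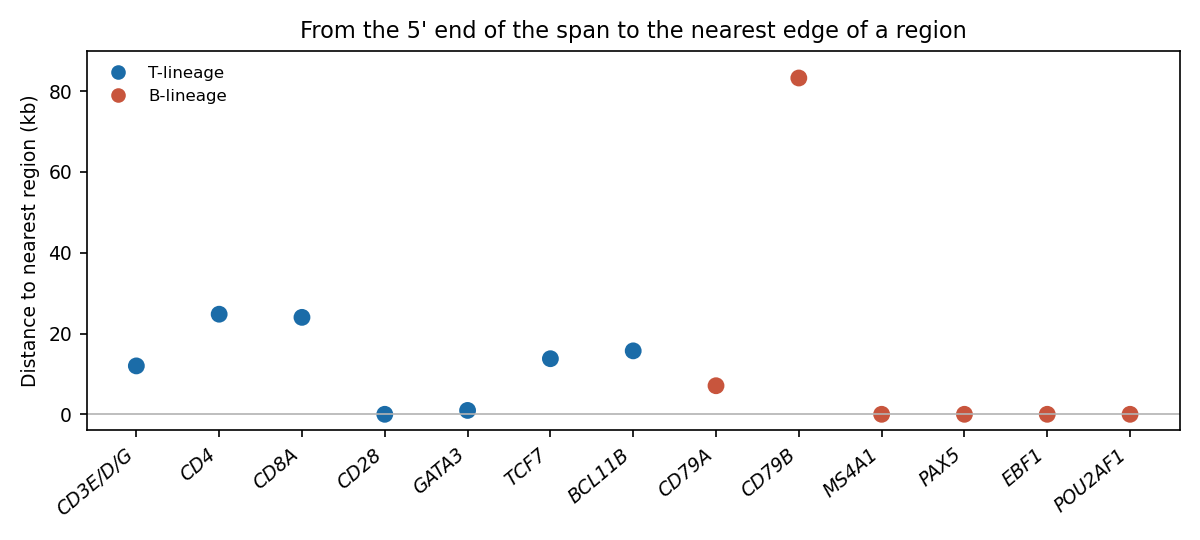
Each point is 1 locus, T-lineage left and B-lineage right, with the distance in kb from its 5′ end to the nearest edge of an accessible region. CD28 and 4 B-lineage genes stand at 0, CD4 at 24.8 kb and CD79B at 83.3 kb.

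Inside the gene spans the T-lineage loci held 4 regions, or 13.7 per Mb, and the B-lineage loci 15, or 22.9 per Mb. Of the 15, 12 were in PAX5 and EBF1, the longest of the spans, and without these genes the B-lineage value was 60.0 per Mb, from 3 regions. Because the B-lineage bounds were rounded to 1 kb, a midpoint close to a bound may be counted on the wrong side. The B-lineage counts inside spans and in flanks are therefore approximate. Over the whole windows the T-lineage loci held 17 regions, or 17.1 per Mb, and the B-lineage loci 26, or 20.7 per Mb. In the flanks alone the T-lineage loci held 13 regions, or 18.6 per Mb, and the B-lineage loci 11, or 18.3 per Mb. Leaving out CD4, the T-lineage flanks held 9 regions, or 15.0 per Mb. Leaving out PAX5 and EBF1, the B-lineage flanks held 9, or 22.5 per Mb. Over whole windows the values without these genes were 15.1 and 26.7 per Mb. The flank values thus depended on which loci were counted. Among the factors, the 3 T-lineage genes held 7 regions in their windows, or 15.3 per Mb, 2 of them inside the spans, and the 3 B-lineage genes held 21, or 22.5 per Mb, of which 14 were inside. Among the surface proteins, the 4 T-lineage spans held 10, or 18.7 per Mb, and the 3 B-lineage genes 5, or 15.5 per Mb. Of these 10, 4 lay in the flanks of CD4, the window most crowded with other genes, so the order of the 2 values rests on that locus. The highest score was borne by 8 of 17 regions at T-lineage loci and 12 of 26 at B-lineage loci. With 7 and 6 loci in the sets, chosen by name and of unequal length, these values are set side by side without a test.

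**Figure D4:**
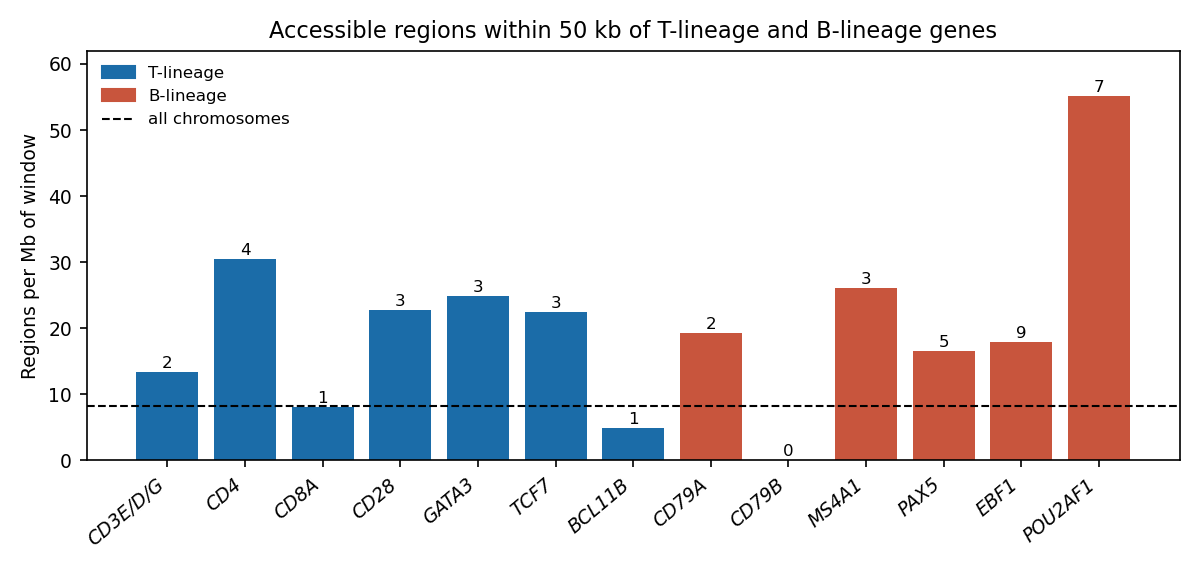
Bars give accessible regions per Mb of window at each locus, T-lineage left and B-lineage right, with the number of regions above each bar, and the dashed line is the 8.27 per Mb of the chromosomes. T-lineage bars run from 4.95 at BCL11B to 30.5 at CD4, B-lineage bars from 0 at CD79B to 55.1 at POU2AF1.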

How the data were processed

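ATAC-seq was run on 2 libraries from separate cultures of GM12878, which the labels place in 1 group. What the authors deposited is a single list covering both, with a score per region on a scale that no label names. The list's name carries abbreviations that can be read as an IDR of 0.05 and as removal of poorly mappable, mitochondrial and blacklisted DNA. If so, a stretch without regions may reflect such removal, which was not tested. The submitters' processing notes give hg19 as the build and list the peak caller MACS2 2.1.0 beside BWA 0.7.13, with no roles, among other tools. Any shift of reads for the transposase is not stated in them.

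Regions were assigned by midpoint to the 7 gene spans with 50 kb flanks. The distance to a start is that of the nearest edge of a region, with the strands of CD3E and CD4 from general knowledge. Bands and chromosome lengths of hg19 are those of the R package circlize. The RefSeq tables are of GRCh38.p14 and gave names, gene order and promoter sequences, and none of their coordinates were used on the list. With no annotation of hg19, exons and introns were not assigned, and other T-cell genes were not placed. The 9 genes were all named, and they, the motifs and the B-lineage genes were chosen with earlier results of these data known. Counting was tested on simulated regions. Calculations used Python 3.11.15, numpy 2.4.6, pandas 2.3.3 and matplotlib 3.10.9. One more B-lineage locus of the planned comparison is not reported here. No statistical test was made, since the list has 1 group and no value per library.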

Additional observations from a re-analysis of the deposited data

How the results depend on the processing

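Alternatives were 10 and 100 kb flanks, only regions with the highest score, any base in place of the midpoint, a wider limit at the start, and leaving out CD4 or both PAX5 and EBF1. Of 22 alternatives over 7 results, 16 stayed within 1.5 times the reported value, or for the width within 1 SD, and 6 moved further; 3 of the 22 were chosen after seeing the data. With only regions of the highest score, the density fell to 8.07 per Mb at T-lineage loci and 9.55 per Mb at B-lineage loci, beside 4.95 per Mb over the chromosomes, and 1 region, that of CD28, was left inside the T-lineage spans. Such regions numbered 3 of 7 (42.9%) with 10 kb flanks and 16 of 27 (59.3%) with 100 kb flanks, so the share below that of the list seen with 50 kb flanks was all but gone with 100 kb. Taking the midpoint in place of the edge left 1 T-lineage span, CD28, with a region within 1 kb of its start, because the midpoint of the GATA3 region lay 1193 bp from it. The T-lineage density ran from 15.1 per Mb without CD4 to 17.1 per Mb under the other settings. Of the 7 T-lineage windows, 5 held a region with 10 kb flanks, and 5 did with only regions of the highest score. The share of all tiles that do so was not computed for either setting. No paired analysis was possible because both replicates share 1 list without values of their own, and for the same reason no replicate could be left out. Depth is unknown, so absence from the list is not read as closed chromatin.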
